A study of Rattus norvegicus with 47 samples.

Results

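Dendritic cells take up antigen, carry it to lymphoid organs and present it to T cells. The 8 dendritic cell genes described here are Flt3, Tcf4, Batf3, Xcr1, Clec9a, Zbtb46, Irf8 and Cd83, found by their symbol in the annotation of the array. Each of the 8 had 1 probe set, out of 20935 genes with a symbol on the array. They were followed in the blood of 8 male SHR (spontaneously hypertensive) rats, 16 weeks old, before and after a thread was placed to block the middle cerebral artery (MCA). Blood was taken at 0 h, immediately before anaesthesia, and at 1, 2, 3, 6 and 24 h post MCA occlusion. With 7 arrays at 6 h and 8 at every other time, 47 arrays were analysed. All rats had the occlusion, which was transient, with the thread withdrawn between the 1 h and the 2 h sample, and there was no sham group, so the effects of occlusion, reperfusion, anaesthesia, surgery and repeated bleeding cannot be told apart. The 24 h blood came from the heart, right after an anaesthetic overdose, and all earlier blood from the tail vein. Collection site, overdose and time therefore cannot be told apart at 24 h. RNA came from the whole pellet of blood cells, in which dendritic cells are rare. The level of an mRNA there can fall with fewer cells of a type or with less mRNA in each cell. Because the signal was quantile normalized it is relative, and it can also fall when other cells supply more of the RNA. These cannot be told apart.

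Dendritic cells develop from marrow progenitors that carry FLT3, the receptor for FLT3 ligand. Conventional type 1 cells depend on the transcription factors IRF8 and BATF3 and carry the chemokine receptor XCR1 and the lectin CLEC9A, which binds actin filaments exposed on dead cells. ZBTB46 marks the conventional lineage, TCF4 is the E protein that specifies plasmacytoid dendritic cells, the main producers of type I interferon, and CD83 is a surface protein of mature dendritic cells. Several of these genes are not confined to dendritic cells: IRF8 and TCF4 also act in B cells, CD83 appears on activated B cells and T cells, and FLT3 is found on early progenitors.

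The 8 genes did not move together. Irf8 and Cd83 were lower at all 5 later time points than at 0 h, Clec9a was higher at all 5, Xcr1 was higher at 6 and 24 h, Flt3 was lower at 1 and 2 h, and Tcf4 was higher at 2 h and lower at 24 h. Batf3 and Zbtb46 passed the test at no time point. The test was limma's moderated test, computed from the authors' means and SDs, and a gene was called at an adjusted p below 0.05. At 1 h, 1 of the 8 genes was called higher and 3 lower, beside 21.7% of all 27596 probe sets higher and 15.4% lower. At 2 h the counts were 2 higher and 3 lower, beside 21.7% and 18.6% of all probe sets. Those at 3 h were 1 and 2, beside 27.3% and 19.2%. At 6 h, 2 were higher and 2 lower, beside 22.5% and 19.3%. At 24 h, 2 were higher and 3 lower, beside 17.4% and 13.9%. Each count of the 8 genes was within 2 genes of the number that these shares give. Over the whole time course the F-test of Irf8, Cd83, Clec9a and Tcf4 had a p below 5e-07, which is 4 of 8 genes, and 13.5% of all probe sets passed the same threshold. The threshold is the one the paper set for its own F-test, whose values were not used here. By the F-test made here Cd83 ranked 591, Irf8 1168, Tcf4 1999 and Clec9a 2868 among the 27596 probe sets.

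**Figure D1:**
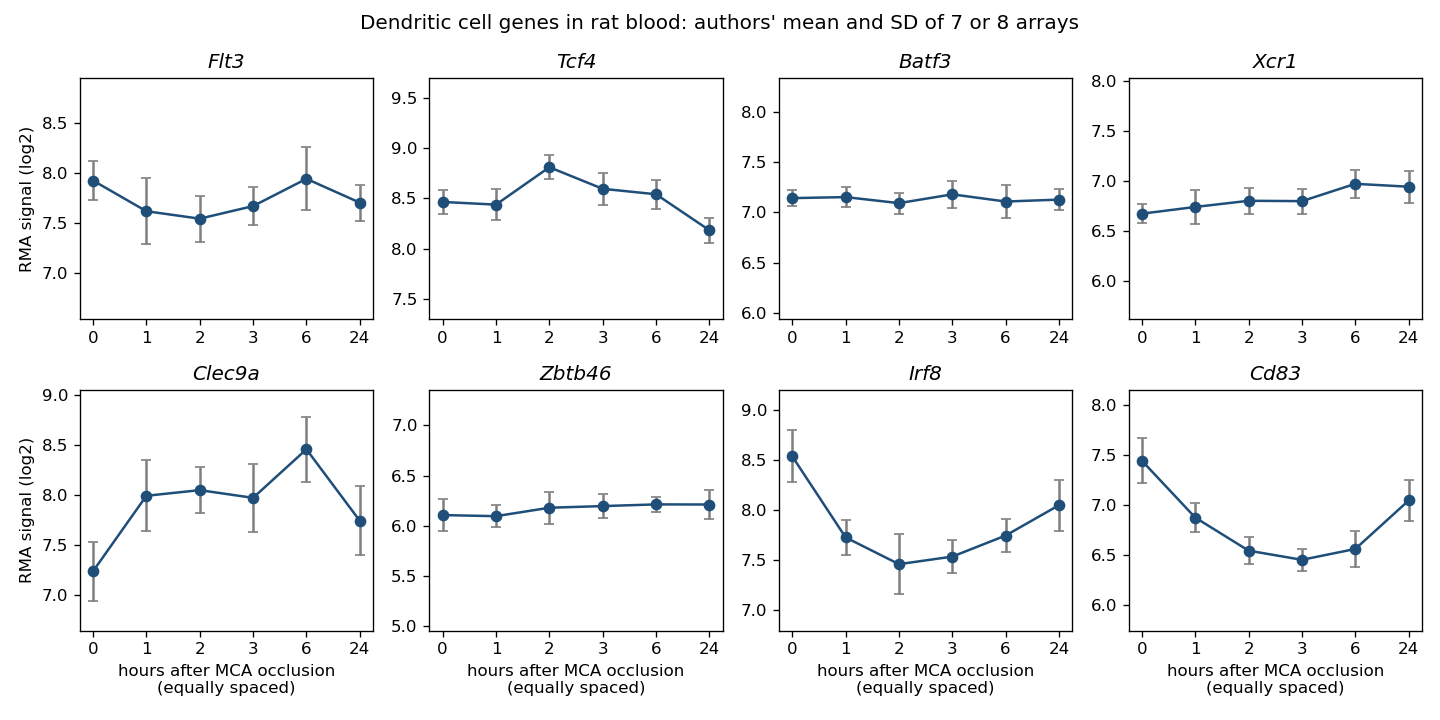
Signal of the 8 dendritic cell genes on the log2 scale at 0, 1, 2, 3, 6 and 24 h, with the time points equally spaced on the x axis. Points are the authors' means of 8 arrays (7 at 6 h), bars are the deposited SDs, and each y axis spans the same range of log2 units, so that the slopes can be compared. Irf8 and Cd83 dip and are part of the way back at 24 h, Clec9a is highest at 6 h, and Batf3 and Zbtb46 stay level within their SDs.

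Among the transcription factors, Irf8 changed most. It drives type 1 conventional and plasmacytoid dendritic cell development and is also active in monocyte progenitors and B cells. On the rn5 build its probe set spans chromosome 19 from 65037338 to 65053996 (plus strand). At 0, 1, 2, 3, 6 and 24 h, in this order, the authors' log2 means of Irf8 were 8.53, 7.72, 7.46, 7.53, 7.74 and 8.05, with deposited SDs from 0.16 to 0.30. The level was thus lowest at 2 h and highest before the occlusion. At 2 h it was 2.11-fold below 0 h, a log2 change of -1.07 with an SE of 0.11 and an adjusted p of 2.49e-11. The changes at 1, 3 and 6 h were -0.81, -0.999 and -0.79, and each exceeded 3 times the larger SD of the 2 time points. At 24 h Irf8 was still lower than at 0 h by a log2 change of -0.49 (adjusted p = 6.66e-04), which is 45.2% of the largest change. Between 2 and 24 h it rose by 0.59 on the log2 scale with an SE of 0.11 (adjusted p = 5.92e-05). Taken from 6 to 24 h alone, the difference of 0.30 did not pass the test (adjusted p = 0.0529).

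Cd83, an immunoglobulin-type surface protein that appears as dendritic cells mature, followed a similar course. It maps to chromosome 17, 26365033 to 26384000, plus strand, in the same build. The log2 means were 7.44, 6.87, 6.54, 6.45, 6.56 and 7.04 in the same order of times, with SDs from 0.11 to 0.23. The lowest value, at 3 h, was 1.98-fold below that at 0 h, a log2 change of -0.99 with an SE of 0.08 (adjusted p = 1.34e-13). That change was 4.37 times the larger of the 2 SDs. Of the steps between neighbouring time points, Cd83 fell from 0 to 1 h by 0.57 (adjusted p = 8.14e-07) and from 1 to 2 h by 0.33 (adjusted p = 0.00733), showed no step that passed the test from 2 to 3 h or from 3 to 6 h, and rose by 0.48 from 6 to 24 h (adjusted p = 3.2e-05). At 24 h, a log2 change of -0.40 from 0 h was left (adjusted p = 3.39e-04), 40.1% of the largest one. The F-test ranked Cd83 at 591 and Irf8 at 1168 among the 27596 probe sets, with p-values of 9.41e-16 and 1.59e-12.

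Clec9a, the type 1 dendritic cell receptor for dead cells, moved the other way. It maps to chromosome 4, 211818555 to 211831171, plus strand, and no other probe set overlaps it. Before the occlusion its log2 mean was 7.24, and at 1, 2, 3, 6 and 24 h it was 7.99, 8.05, 7.97, 8.46 and 7.74, with SDs from 0.23 to 0.35. The SD of 0.35 at 1 h was the highest of any of the 8 genes at any time, and the change at 24 h, 0.50 on the log2 scale (adjusted p = 0.0096), was 1.45 times the larger SD. The level at 6 h was 2.32-fold that at 0 h, a log2 change of 1.22 with an SE of 0.16 (adjusted p = 1.2e-08). After the rise in the first hour, of 0.75 (adjusted p = 1.22e-04), no difference among 1, 2 and 3 h from step to step passed the test. The step from 3 to 6 h, 0.48, missed the threshold with an adjusted p of 0.062, and the fall from 6 to 24 h, -0.71, passed it with an adjusted p of 5.51e-04. With Bonferroni adjustment Clec9a was called at 6 h alone of the 5 times against 0 h.

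The sequences before the starts of these 3 genes are shown because Irf8 and Cd83 fell over the same hours while Clec9a rose. They are the 250 bases upstream of the annotated start, from RefSeq on GRCr8, read 5′ to 3′ on the strand of the gene, and all 8 genes were matched there. Irf8 is at chr19:65699034-65699283 on the plus strand, Cd83 at chr17:21112678-21112927 on the minus strand (on rn5 the array annotation gives the plus strand) and Clec9a at chr4:164546073-164546322 on the plus strand. Capitals mark letters that match TTCNNNGAA (bound by activated STAT factors), CANNTG (the E-box that E proteins such as TCF4 bind) or TATAAA.
Irf8: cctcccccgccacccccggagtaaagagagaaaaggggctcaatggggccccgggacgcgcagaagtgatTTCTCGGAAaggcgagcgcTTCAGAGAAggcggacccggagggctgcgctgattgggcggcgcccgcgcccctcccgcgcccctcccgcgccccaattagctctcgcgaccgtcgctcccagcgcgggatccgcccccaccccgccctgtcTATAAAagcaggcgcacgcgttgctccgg
Cd83: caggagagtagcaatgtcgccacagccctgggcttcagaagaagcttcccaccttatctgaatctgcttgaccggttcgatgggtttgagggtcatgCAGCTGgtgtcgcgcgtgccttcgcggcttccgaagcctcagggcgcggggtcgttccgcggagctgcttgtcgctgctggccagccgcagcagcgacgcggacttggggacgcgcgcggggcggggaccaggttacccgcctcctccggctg
Clec9a: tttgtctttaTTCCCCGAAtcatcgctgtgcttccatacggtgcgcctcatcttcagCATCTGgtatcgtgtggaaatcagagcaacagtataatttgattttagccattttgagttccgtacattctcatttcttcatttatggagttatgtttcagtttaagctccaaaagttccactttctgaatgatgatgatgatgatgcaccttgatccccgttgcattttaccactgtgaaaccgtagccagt
Both strands were searched, the motifs were chosen with the sequences in view, and a match is a run of letters, not a binding site. Irf8 held TTCNNNGAA at 180 and 161 bases before the start and TATAAA at 29 bases. Clec9a held TTCNNNGAA at 240 bases and an E-box at 193 bases, and Cd83 held an E-box at 153 bases. Thus TTCNNNGAA was found with both a gene that fell and a gene that rose. Over all 33469 RefSeq promoters of the same length, 7.67% held TTCNNNGAA, 12.9% held TATAAA and 65.5% held CANNTG. Among the 8 genes TTCNNNGAA was also found in Batf3, TATAAA also in Zbtb46, and CANNTG in 5. The AP-1 letters TGANTCA, the kind of element BATF3 binds with JUN proteins, were found in Xcr1 alone of the 8, and in 6.34% of all promoters. None of the 8 held GAAANNGAA, a core of IRF elements (8.12% of all promoters), GGAANNGAA, a core shared by ETS and IRF factors whose letters can overlap it (7.74%), or the NF-kB element (6.33%). The GC content of the window was 70.4% in Irf8, 66.4% in Cd83 and 40.8% in Clec9a, beside a median of 51.2% over all promoters.

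**Figure D2:**
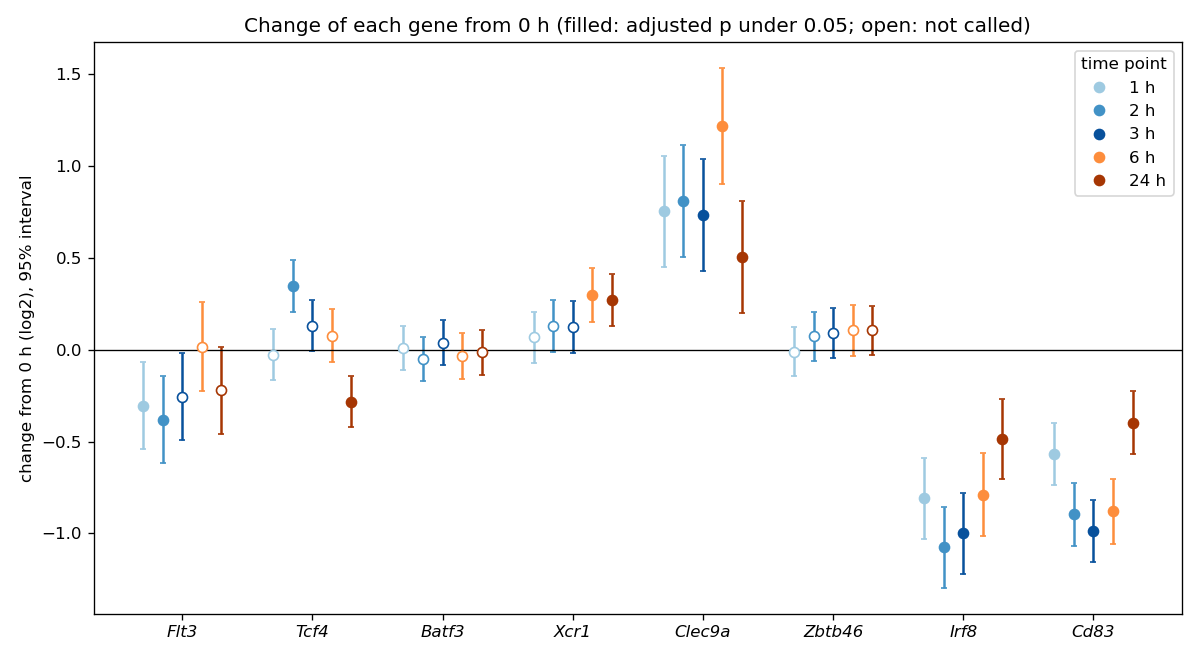
Log2 change of each dendritic cell gene from 0 h at 1, 2, 3, 6 and 24 h, with 95% intervals of the moderated test. Filled points passed an adjusted p of 0.05 and open points did not. All 5 points of Clec9a lie above 0, all 5 of Irf8 and Cd83 lie below it, and the 2 filled points of Tcf4 lie on opposite sides.

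Of the other 2 receptors, Xcr1 rose late and Flt3 dipped early. Xcr1, the receptor through which type 1 dendritic cells follow the chemokine XCL1, maps to chromosome 8, 132065624 to 132066592, minus strand. From 0 to 24 h its log2 means were 6.68, 6.74, 6.80, 6.80, 6.97 and 6.94, with SDs from 0.10 to 0.17. The change was 0.30 at 6 h (SE 0.07, adjusted p = 8.34e-04) and 0.27 at 24 h (SE 0.07, adjusted p = 0.00298). Both were under 2.1 times the larger SD, the time points from 1 to 3 h did not pass the test, and no step between neighbouring time points did. Neither call of Xcr1 held with Bonferroni adjustment. Unlike Clec9a, it was at nearly the same level at 6 and at 24 h, with a difference of -0.03 and a 95% interval from -0.17 to 0.12.

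Flt3, the receptor kinase of dendritic cell progenitors, maps to chromosome 12, 11477898 to 11552299, plus strand. The 6 log2 means, in order of time, were 7.92, 7.62, 7.54, 7.67, 7.94 and 7.70, with SDs from 0.18 to 0.33. The values at 1 and 2 h were the lowest, and those at 0 and 6 h the highest. The change was -0.31 at 1 h (SE 0.12, adjusted p = 0.0365) and -0.38 at 2 h (SE 0.12, adjusted p = 0.00823). Both calls were lost when the 6 columns of means were quantile normalized, with adjusted p-values of 0.121 and 0.0551. Its F-test had an adjusted p of 0.0148 and a rank of 12040.

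Tcf4, the E protein of plasmacytoid dendritic cells, maps to chromosome 18, 64357310 to 64694058, plus strand. Its log2 means ran 8.46, 8.44, 8.81, 8.60, 8.54 and 8.18 over the 6 times, with SDs from 0.12 to 0.16. It was highest at 2 h and lowest at 24 h, and these 2 values differed by -0.63 with an SE of 0.07 (adjusted p = 9.08e-10). The rise of 0.35 over 0 h at 2 h (adjusted p = 7.23e-05) took place between 1 and 2 h, a step of 0.37 (adjusted p = 2.13e-04). At 24 h Tcf4 was below 0 h by a log2 change of -0.28 (adjusted p = 0.00181), after a fall of -0.36 from 6 h (adjusted p = 1.67e-04). It was also called higher with quantile normalized means at 3 h (adjusted p = 0.00431) and 6 h (adjusted p = 0.0361). Within the span of Tcf4 lies 1 other probe set, without a symbol and on the same strand, at a log2 mean of 4.05 at 0 h. That probe set, whose 0 h mean is below the level of 5.63 that bounds the dimmest 25% of probe sets, was lower at 2, 6 and 24 h, by -0.28, -0.33 and -0.37, so that it moved against Tcf4 at 2 h and with it at 24 h.

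Batf3 and Zbtb46 showed no change that passed the test. Batf3, the AP-1 factor of type 1 dendritic cells, maps to chromosome 13, 114308705 to 114320081, plus strand. Its log2 mean stayed between 7.09 and 7.18 at the 6 time points, with SDs from 0.08 to 0.16. Its 95% intervals against 0 h reached from -0.17 to 0.16 over the 5 later time points and so did not reach the changes measured for Irf8, its partner in type 1 cells. Zbtb46, a zinc finger repressor of the conventional lineage, maps to chromosome 3, 180601935 to 180636828, minus strand. Its mean stayed between 6.09 and 6.21, with SDs from 0.07 to 0.16 and intervals from -0.15 to 0.25. The F-test p was 0.75 for Batf3 and 0.314 for Zbtb46. None of the 8 genes was among the dimmest 25% of probe sets, those with a mean log2 signal below 5.63. The median of all probe sets, however, was 6.61 to 6.66 at the 6 time points. Zbtb46 lay below it at every time, and Cd83 at 2, 3 and 6 h (6.54, 6.45 and 6.56). Whether such signals were above the background of the array was not tested.

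The steps between neighbouring time points after 1 h, which do not share the 0 h arrays, showed when some of these genes moved. Each still shares the arrays of a time point with the next step. From 0 to 1 h Irf8 (-0.81), Cd83 (-0.57) and Flt3 (-0.31) fell and Clec9a (0.75) rose. Irf8 passed the test at no later neighbouring step. From 1 to 2 h, Tcf4 rose and Cd83 fell, which is 2 of 8 genes beside 8.78% of all probe sets called in either direction. From 2 to 3 h none of the 8 passed limma's test, 1 (Tcf4, lower at 3 h) had an unadjusted p below 0.05, and 3.53% of all probe sets were called. From 3 to 6 h none passed it either, 3 had an unadjusted p below 0.05 (Flt3, Xcr1 and Clec9a, all 3 higher at 6 h), and 4.78% of all probe sets were called. From 6 to 24 h Cd83 rose and Tcf4 and Clec9a fell, 3 of 8 beside 18.9% of all probe sets. Between 2 and 24 h Irf8 and Cd83 were higher and Tcf4 lower at the later time, 3 of 8 beside 16.2%. The fall of Tcf4 and of Clec9a and the rise of Cd83 from 6 to 24 h coincide with the change from tail vein to heart blood drawn after the overdose. The part of site and overdose in them was not tested.

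The other genes of the dendritic cell types were counted in the same way, and their counts are to be read against the shares of all probe sets given above, 17.4% to 27.3% higher and 13.9% to 19.3% lower. Of 9 measured genes of type 1 conventional cells, 3 were called higher and 2 lower at each of 1, 2 and 3 h, then 4 and 2 at 6 h, and 0 and 2 at 24 h, with median changes between -0.01 and 0.13. At 2 h these were 33.3% higher and 22.2% lower, beside 21.7% and 18.6% of all probe sets. The share that was higher was 44.4% at 6 h, beside 22.5%, and 0 of 9 genes at 24 h, beside 17.4%. Nfil3, a transcription factor upstream in the type 1 lineage, rose to a log2 change of 0.79 at 2 h and 0.86 at 3 h, and Thbd, thrombomodulin, rose by 0.50 at 2 h. Cadm1, an adhesion molecule that marks type 1 cells, fell by 0.78 at 2 h and reached -1.19 at 6 h (adjusted p = 1.1e-18). Tlr3, the receptor for double-stranded RNA, was lower at 2 h by -0.41 (adjusted p = 0.0223). Thus Cadm1 fell while Clec9a, of the same cell type, rose over the same hours.

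Of 12 genes of type 2 conventional cells, 5 were higher and 4 lower at 1, 2 and 3 h. These counts were 8 and 4 at 6 h, then 3 and 3 at 24 h, with a highest median of 0.30 at 6 h. At 2 h the shares were 41.7% and 33.3%, beside the same 21.7% and 18.6%, and with centred means 2 rather than 5 were higher at 1 h. Itgam, the CD11b chain, rose by 0.94 at 2 h and stood 1.12 above 0 h at 6 h, and Clec10a, a galactose-binding lectin, rose by 0.87 at 2 h and stood at 1.40 at 3 h. The transcription factors Klf4 and Irf4 fell, by 1.31 and 0.77 at 2 h. Itgam is also a neutrophil and monocyte gene, as several of this list are.

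Most plasmacytoid dendritic cell genes were lower than at 0 h. Of 14 measured genes, 8 were lower at each of 1, 2 and 3 h, and 10 at both later times, against 2, 3, 2, 2 and 1 that were higher, and the median change went from -0.28 at 1 h to -0.46 at 6 h, with -0.45 left at 24 h, where the median of all probe sets was between 0.04 and 0.07. At 2 h, 57.1% were lower, beside 18.6% of all probe sets. With Bonferroni adjustment 5, 6, 5, 5 and 6 of the 14 were called lower at the 5 times, which is not most of them at any time. Nrp1, the coreceptor neuropilin, fell by 1.95 at 2 h (adjusted p = 1.22e-20), and Spib, an ETS factor, by 1.17 at 2 h (adjusted p = 2.14e-14). The genes of this list that rose most at 2 h were Il3ra, the interleukin 3 receptor, by 0.47, and Tlr7, the receptor for single-stranded RNA, by 0.38. Tlr7 was lower at 24 h by -0.44 (adjusted p = 0.00169), so that it was higher at 2 h and lower at 24 h, as Tcf4 was. Spib and Bcl11a of this list are also B cell genes, and whether its other genes are confined to plasmacytoid cells was not tested. At 2 h all 14 B cell markers (median -2.00) and all 15 T cell markers (median -0.91) were lower as well, and their part in the fall of the plasmacytoid genes was not tested.

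**Figure D3:**
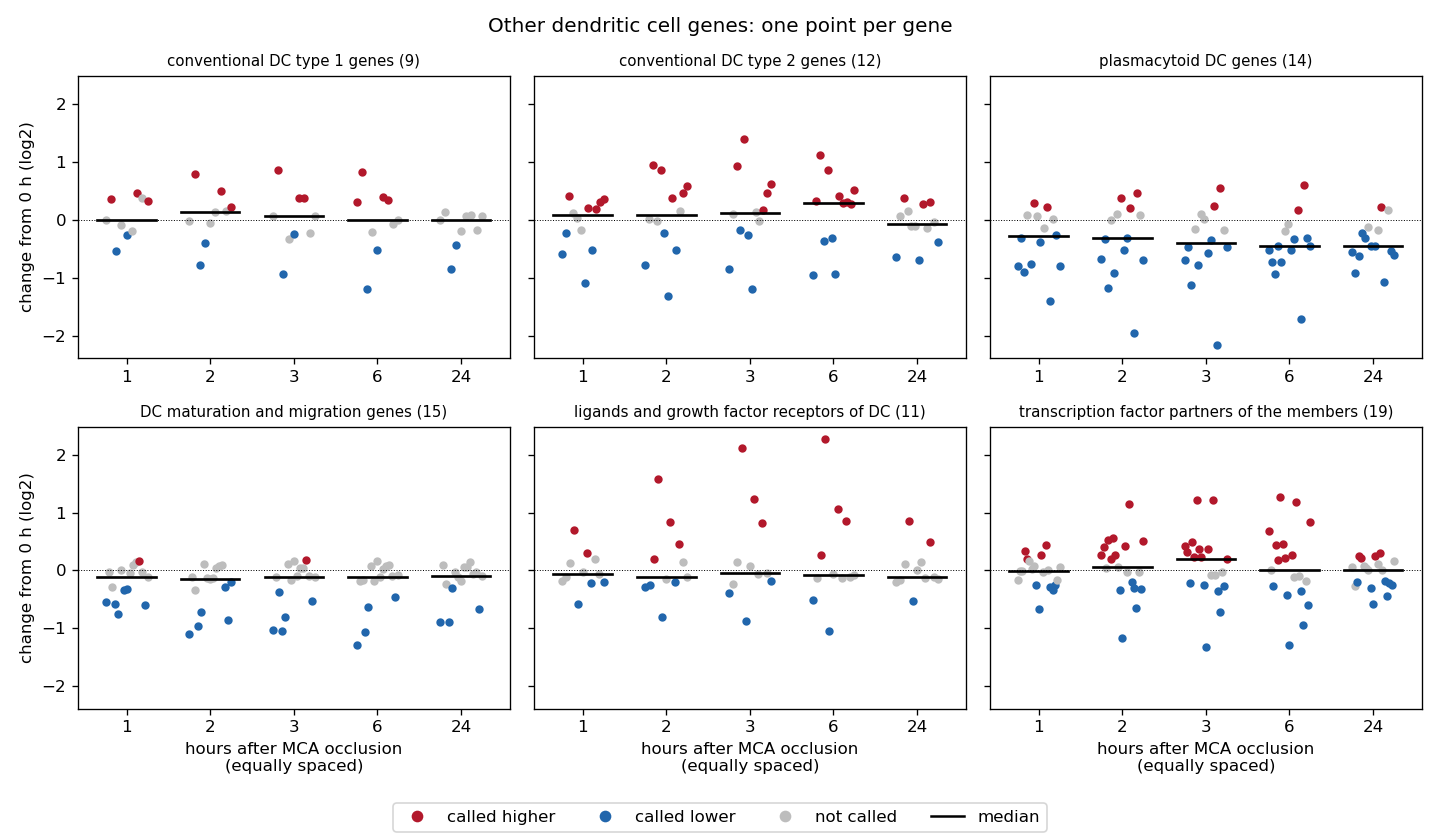
Log2 change from 0 h of the other dendritic cell genes at 1, 2, 3, 6 and 24 h, in 6 lists with the number of measured genes in brackets. Each point is 1 gene, red where called higher, blue where called lower and grey where not called, and the black line is the median of the list. The plasmacytoid list lies mostly below 0 at all 5 time points, while the type 1 and type 2 lists have genes on both sides.

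Genes of dendritic cell maturation and migration were lower or not called at most times. Of 15 measured, 6, 6, 5, 4 and 4 were lower at 1, 2, 3, 6 and 24 h, and 1, 0, 1, 0 and 0 were higher, with medians between -0.14 and -0.10. The share that was lower at 2 h was 40%, beside 18.6% of all probe sets. The 2 largest falls at 2 h were those of Ccr7, the receptor that guides mature dendritic cells to lymph nodes, by 1.10 (adjusted p = 8.15e-12), and Cd86, a costimulatory ligand, by 0.96 (adjusted p = 9.77e-09). Both were lowest at 6 h, at -1.29 and -1.07, while Cd83 was lowest at 3 h, and Ccr7 is also a gene of naive T cells.

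Among the ligands, growth factor receptors and signalling genes of dendritic cells, 2, 4, 3, 4 and 2 of 11 were higher and 3, 4, 3, 2 and 1 lower at the 5 times, with medians between -0.12 and -0.04. At 2 h 36.4% were higher and 36.4% lower, beside 21.7% and 18.6% of all probe sets, and with quantile normalized means 2 rather than 4 were lower. Csf2rb, the shared beta chain of the receptors for GM-CSF, IL-3 and IL-5, rose by 1.59 at 2 h, and its change was 2.27 at 6 h (adjusted p = 4.22e-19). Stat3, which carries the signal of FLT3 ligand, rose by 0.84 at 2 h. Csf1r, the M-CSF receptor, which is also in the monocyte list, fell by 0.80 at 2 h. The probe set named Flt3lg, which is shared with the ribosomal protein gene Rpl13a and so measures both, was lower at 2 h by -0.28 (adjusted p = 0.0354). Partners of the 4 transcription factors went both ways, with 4, 9, 10, 9 and 4 of 19 higher and 5, 6, 6, 6 and 7 lower, and medians between -0.01 and 0.20, which at 2 h is 47.4% higher and 31.6% lower. With quantile normalized means 4 rather than 7 of these partners were lower at 24 h. Id1, an inhibitor of E proteins, rose by 1.14 at 2 h, when Tcf4 was at its highest, and Jun, a partner of BATF3, by 0.56 at 2 h, with 1.27 at 6 h. Tcf12, another E protein, fell by 0.66 at 2 h, and the Ikaros factor Ikzf3 by 1.17.

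Markers of the more abundant blood cells were counted over the same hours, and those of B cells, T cells and neutrophils moved in 1 direction. All 14 B cell markers were lower at 2 h, and 13, 14, 13, 13 and 11 of them at the 5 times, with median changes of -1.48, -2.00, -2.05, -1.62 and -0.53. At 0, 2 and 24 h the mean log2 level of this list was 9.39, 7.70 and 8.86, and at 2 h Ms4a1, which encodes CD20, fell by 2.56 and Ebf1, a B lineage factor, fell by 2.49. Irf8 and Cd83 were lowest at 2 and 3 h, as the B cell markers were, and the part of B cells in their fall was not tested.

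T cell markers were lower in 15 of 15 genes up to 6 h and in 14 at 24 h, with medians from -0.52 to -1.14, and their mean level went from 9.65 at 0 h to 8.55 at 6 h. Cd8b fell by 1.23 and Cd3d by 1.09 at 2 h. Of 10 NK cell markers, 3, 8, 8, 7 and 7 were lower, with medians from -0.16 to -0.66, Klrk1 and Klrd1 falling by 0.87 and 0.69 at 2 h and Ncr1 rising by 0.22. With quantile normalized means the NK counts were 1 lower at 1 h and 3 lower at 2 h. Of 12 monocyte markers, 1, 4, 4, 4 and 2 were higher and 9, 6, 6, 6 and 6 lower, with medians from -0.60 to -0.18. The share of monocyte markers that was higher was 8.33% at 1 h and 16.7% at 24 h, below the 21.7% and 17.4% of all probe sets. At 2, 3 and 6 h it was 33.3%, above the 21.7%, 27.3% and 22.5% of all probe sets. In that list Cd14 and Msr1 rose by 1.38 and 1.01 at 2 h, while Ly86 and Nr4a1 fell by 1.64 and 1.21.

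Neutrophil markers were higher in 10, 11, 11, 11 and 9 of 12 genes, with median changes of 0.82, 1.40, 1.33, 1.55 and 0.74. At 0, 6 and 24 h their mean log2 level was 9.52, 11.10 and 10.16, and Il1r2 and Fpr1 rose by 2.95 and 2.80 at 2 h. The median was highest at 6 h, as Clec9a was, and the part of neutrophils in the rise of Clec9a was not tested. Platelet markers were higher in 5, 4, 2, 1 and 5 of 8 genes with medians from 0.06 to 0.29, Selp and Treml1 rising by 0.71 and 0.29 at 2 h. The platelet shares at 3 and 6 h, 25% and 12.5%, were below the 27.3% and 22.5% of all probe sets that were higher. With centred means the platelet counts were 3, 2 and 1 at 1, 2 and 3 h. Of 9 erythroid markers, 4, 0, 1, 0 and 5 were higher and 4 were lower at 6 h, with medians from -0.13 to 0.25, and none of the 9 was called in either direction at 2 h. With quantile normalized means 3 were higher at 3 h and 2 lower at 6 h. The spread of the 2 time points compared alone also gave 2 lower at 6 h.

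**Figure D4:**
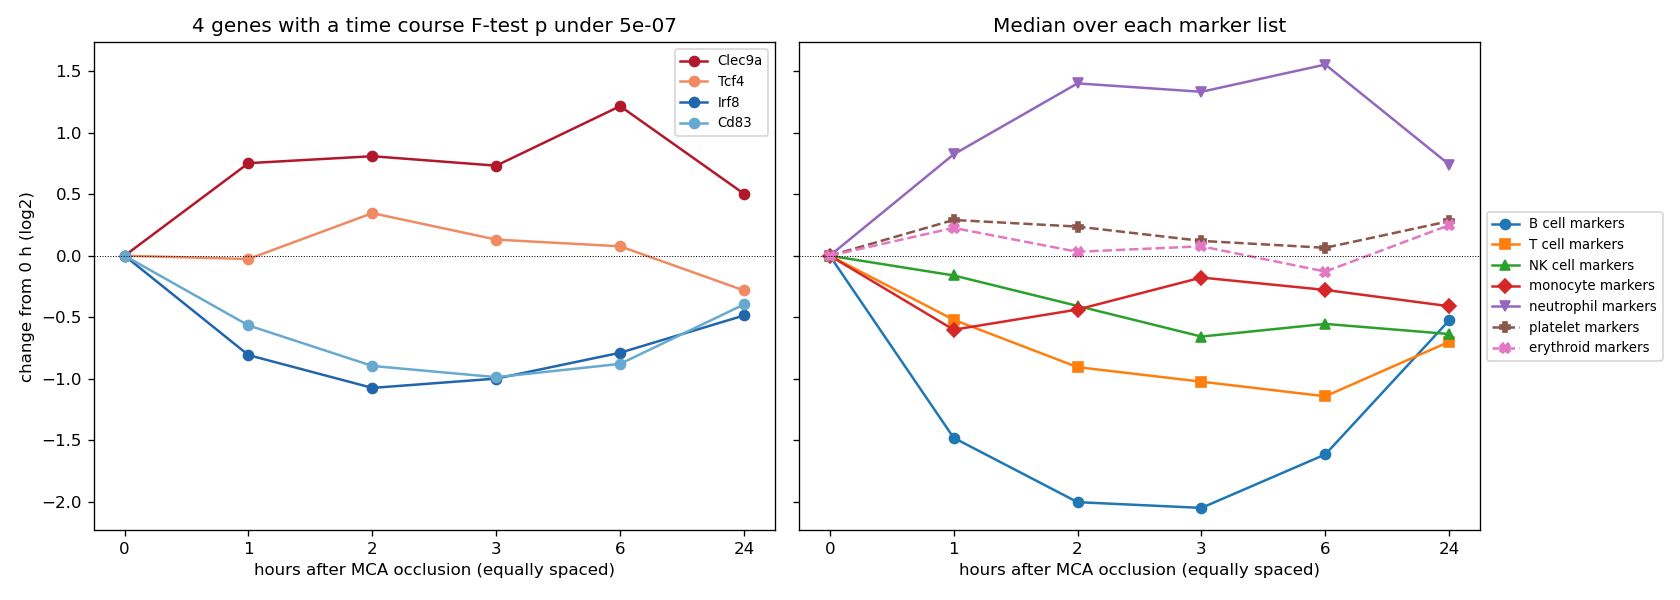
Log2 change from 0 h of the 4 dendritic cell genes with a time course F-test p below 5e-07 (left) and the median change of the marker lists of 7 blood cell types (right), at equally spaced time points. Irf8 and Cd83 are lowest at 2 and 3 h, where the B cell median reaches -2.05, and Clec9a is highest at 6 h, as is the neutrophil median.

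The genes next to Clec9a were looked at after its values were seen, since it lies among other C-type lectin genes. Within 100000 bases, Clec1a rose by 1.23 at 1 h and stood 1.74 above 0 h at 6 h, and for Clec7a, the beta-glucan receptor dectin 1, these changes were 0.55 and 0.91. Clec1b, a platelet receptor, was called at no time point, with changes between -0.08 and 0.04. Clec12b was higher at 2, 6 and 24 h, by 0.60, 0.63 and 0.76. The other 3 neighbours, RGD1564770, Olr1 and Tmem52b, were each called at 2 or 3 of the 5 time points.

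The genes whose 5 changes from 0 h were nearest to those of a member were found by the root mean square of the differences over the 5 time points. For Irf8 they were Efr3a, Adgrv1 and Spata5, at 0.04, 0.06 and 0.06 log2 units. Those of Cd83 were Uggt2, Eif2ak4 and Sf3b3, at 0.05, 0.06 and 0.06. For Tcf4, Elmsan1, Leprotl1 and Pdcd6 were nearest, at 0.05, 0.06 and 0.06. Clec9a had more distant neighbours, Surf4, St13 and Numb, at 0.10, 0.11 and 0.12. None of the nearest genes belongs to the dendritic cell lists.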

How the data were processed

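The authors measured blood mRNA on Affymetrix rat gene arrays (RaGene 1.0 ST), and deposited 1 table with, for each of 27596 probe sets, the RMA signal (log2, background corrected and quantile normalized) as a mean and an SD per time point, with annotation on rn5. No aligner or count is involved, and the number of arrays limits the precision. RNA was worked up in 6 randomized batches, not named in the labels used here, so batch was not fitted. The table also holds the authors' fold changes, p-values and F-tests, which were not used, and 47 columns of single arrays, named by a bare number that identifies no sample, also not used.

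From the deposited log2 means, SDs and array numbers, limma (version 3.58.1, R 4.3.3) gave moderated tests with all 47 arrays sharing 1 spread (41 residual degrees of freedom), and p-values were adjusted by Benjamini-Hochberg over all probe sets. This takes the SDs as sample SDs and the arrays as independent, although the same rats were bled repeatedly. The code was tested on simulated data against a fit to single arrays. Alternatives were no moderation, a trended robust prior, centred or quantile normalized means, the lowest 25% of probe sets left out, the spread of the compared time points only, no 24 h arrays, and Bonferroni adjustment.

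The 8 genes and the 13 gene lists (159 of 169 genes measured) were chosen with earlier results of these data known. Named were all 8 genes, from each list the 2 largest called rises and falls at 2 h, and the 3 nearest genes of each member with an F-test p below 5e-07.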

Additional observations from a re-analysis of the deposited data

Results flagged for a closer look

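In 3 of the 8 genes the change from 0 h differed between 2 h and 24 h by a test of the difference itself. That test is the comparison of 24 h with 2 h, which called 16.2% of all probe sets in either direction. The change of Tcf4 at 24 h minus that at 2 h was -0.63 on the log2 scale (adjusted p = 9.08e-10), from 0.35 at 2 h to -0.28 at 24 h, so that its sign turned. For Irf8 the difference was 0.59 (adjusted p = 5.92e-05), from -1.07 to -0.49, and it did not pass with Bonferroni adjustment (adjusted p = 0.0624). For Cd83 it was 0.50 (adjusted p = 1.16e-05), from -0.90 to -0.40. The 24 h blood was drawn at another site and after an anaesthetic overdose, and the part of site and overdose in these differences was not tested. The columns of single arrays were not used, so no single array was checked for standing apart from its group.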

How the results depend on the processing

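Of 616 values of the 8 genes under the alternatives, 583 kept their direction and their side of the threshold, 20 lost a call, 5 gained one and 8 changed sign. The changes of sign were all in values near 0 that no setting called: with centred means Batf3 was -0.0388 at 1 h and -0.0008 at 3 h and Flt3 was -0.0130 at 6 h, and with quantile normalized means Tcf4 was 0.0737 at 1 h, Batf3 was 0.0074 at 6 h against 0 h and -0.0168 at 24 h against 6 h, and Zbtb46 was -0.0046 at 3 h against 2 h and 0.0078 at 24 h against 6 h. With Bonferroni adjustment the number of the 8 genes called fell from 4 to 2 at 1 h, from 5 to 2 at 2 h, from 5 to 0 at 24 h, from 2 to 0 for 2 h against 1 h and from 3 to 1 for 24 h against 6 h, and it went from 3 to 2 at 3 h, from 4 to 3 at 6 h and, with the loss of Irf8, from 3 to 2 for 24 h against 2 h. Of the calls against 0 h, Clec9a lost those at 1, 2, 3 and 24 h (adjusted p = 0.252, 0.0709, 0.397 and 1), Xcr1 those at 6 and 24 h, Flt3 and Tcf4 all of theirs, and Irf8 and Cd83 those at 24 h. Losses under the settings that kept the Benjamini-Hochberg adjustment were those of Flt3 given with its values, and an adjusted p of 0.0513 at 1 h when only the 2 time points compared gave the spread. Gains were Flt3 at 3 h (adjusted p = 0.0416 with centred means and 0.0302 with the spread of the 2 time points), Tcf4 at 3 and 6 h, and Irf8 for 24 h against 6 h (adjusted p = 0.0431 without the dimmest probe sets). With Bonferroni adjustment the number of all probe sets called went from 10237 to 1506 at 1 h, from 11139 to 2972 at 2 h, from 12835 to 2933 at 3 h, from 11539 to 3018 at 6 h and from 8620 to 1097 at 24 h. For neighbouring steps it went from 2422 to 306, 973 to 149, 1319 to 140 and 5211 to 1201, and for 24 h against 2 h from 4476 to 1028. The spread of the 2 time points alone gave 737 for 6 h against 3 h. Of 130 counts in the gene lists, those that differed by over 1.5 times were 64 with Bonferroni adjustment, 15 with quantile normalized and 10 with centred means, 3 with the spread of the 2 time points and 1 without moderation. Apart from Bonferroni, among the dendritic cell lists most of these were steps of 1 gene, and the larger ones were 2 for 5 type 2 genes called higher at 1 h with centred means, 2 for 4 ligand and receptor genes called lower at 2 h with quantile normalized means and, for the transcription factor partners called lower at 24 h, 4 for 7 with the same means. NK cell markers called lower went from 3 to 1 at 1 h and from 8 to 3 at 2 h with quantile normalized means. Platelet markers called higher went from 5 to 3, 4 to 2 and 2 to 1 at 1, 2 and 3 h with centred means and from 4 to 2 at 2 h with quantile normalized means, which also took erythroid markers from 1 to 3 higher at 3 h and from 4 to 2 lower at 6 h. Each gene had 1 probe set, so averaging probe sets gave no other value. No paired analysis was possible because the columns of single arrays carry no rat or time point in their names. For the same reason the rat as a replicate block and leaving out each rat were not run. The sample titles do name the rat and the time point, but matching the columns to them in another way was not tried. All p-values given here therefore leave the rat out of the model, and how far they depend on it was not tested.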
